A study of Mus musculus with 6 samples.

Results

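Osteopontin, encoded by Spp1, and CD44, a cell-surface receptor for it encoded by Cd44, were followed through RNA sequencing of mouse pancreatic tumours and normal pancreas. Both genes were chosen by name, as the ligand and receptor of 1 pair, and make up 2 of the 27179 genes in the count tables and 2 of the 16306 genes that could be tested. There were 3 groups of n = 2 libraries each. H7 tumours grew from PANC02-H7 cells and UNKC tumours from UN-KC-6141 cells, both mouse pancreatic carcinoma lines placed by surgery into the pancreas of C57BL/6 mice, left untreated and taken at day 20. The remaining group was normal whole pancreas of C57BL/6 mice. Each tumour group stands for 1 injected line in an immune-competent host, so its RNA holds injected cells together with host cells, and the normal pancreas had no injection of its own. Ages and sexes are not given in the sources used here, and neither is whether the libraries of a group came from separate animals, so the p-values measure the spread between these libraries, which may be technical.

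Osteopontin is a secreted, heavily phosphorylated glycoprotein of the SIBLING family of bone matrix proteins. It is made by bone cells, by epithelia such as ducts, by activated macrophages and by many carcinomas. It binds integrins through an RGD sequence and a nearby site that proteases expose, and it also engages CD44, whose best known ligand is the matrix polysaccharide hyaluronan. CD44 is a single-pass glycoprotein of leukocytes, stromal cells and carcinoma cells, it is joined to actin through ezrin, radixin and moesin, and its alternative exons and shedding yield many protein forms.

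In the mouse GRCm38 (mm10) assembly Spp1 (gene ID 20750) spans chromosome 5 from 104435111 to 104441053 on the plus strand, and Cd44 (gene ID 12505) spans chromosome 2 from 102811141 to 102901669 on the minus strand. GENCODE lists 7 protein-coding transcripts of Spp1, with 4 to 8 exons, and 8 of Cd44, with 9 to 19 exons. The counts run over whole genes, so the standard and variant forms of CD44 could not be told apart. A small nuclear RNA gene, Gm23731, lies within Cd44 and is not analysed here. The promoters are shown because both genes were high and low in the same groups. Each sequence runs from 5′ to 3′ on the strand of its gene and ends at the base before the RefSeq gene start (RefSeq, GRCm38.p6), with capitals marking matches to the motifs searched. The window of Spp1 is chr5:104434861-104435110 (plus strand) and that of Cd44 is chr2:102901670-102901915 (minus strand).
Spp1 promoter: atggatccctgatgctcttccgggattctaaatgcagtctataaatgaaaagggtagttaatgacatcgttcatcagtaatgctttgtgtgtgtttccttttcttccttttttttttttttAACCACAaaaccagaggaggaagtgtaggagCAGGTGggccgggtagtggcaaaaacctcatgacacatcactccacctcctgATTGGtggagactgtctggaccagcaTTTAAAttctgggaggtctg
Cd44 promoter: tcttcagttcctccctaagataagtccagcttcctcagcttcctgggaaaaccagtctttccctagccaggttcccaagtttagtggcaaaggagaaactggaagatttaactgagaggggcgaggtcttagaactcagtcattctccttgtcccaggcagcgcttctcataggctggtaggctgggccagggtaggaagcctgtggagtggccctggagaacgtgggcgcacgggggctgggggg
Short motifs, 6 in all, were searched on both strands, and no matches overlapped. In Spp1 a RUNX core (AACCACA) lay at bases -129 to -123 before the start, an E-box (CANNTG) at -98 to -93, a CCAAT box read on the other strand at -46 to -42 and a TATA-like run (TTTAAA) at -20 to -15. An AP-1 motif (TGANTCA) and a GC box (GGGCGG) had no match in the window of Spp1, and the window of Cd44 held none of the 6 motifs. Among the 27025 promoters given by RefSeq, 4.46% held the RUNX core, 66.0% the E-box, 34.5% the CCAAT box, 12.1% the TATA-like run, 6.87% the AP-1 motif and 32.9% the GC box. These matches describe letters and not binding sites.

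Sequencing depth differed between tumours and normal pancreas. Tumour libraries held 33332516 to 40507546 reads counted in genes, of which 20.1% to 27.8% fell in ribosomal RNA genes. The normal libraries held 12077320 and 8204225, with 86.4% and 85.0% in ribosomal RNA genes. Reads were therefore scaled to an effective library size by TMM factors (2.07 to 2.23 in tumours, 0.179 and 0.256 in normal pancreas) and are given as counts scaled by that size (CPM). The 7 acinar markers fixed for the pancreas summed to 22.6 and 27.7 CPM in H7 tumours and 10.2 and 3.79 CPM in UNKC tumours, against 11100 and 10800 CPM in normal pancreas.

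Spp1 was among the most abundant messages of the tumours. It had 1114 and 1023 CPM in H7 tumours and 3402 and 2520 CPM in UNKC tumours, against 28.7 and 46.7 CPM in normal pancreas. The libraries of the 3 groups did not overlap, and the order was UNKC above H7 above normal. Behind these levels stood 76962 and 79719 reads in H7 tumours and 307188 and 215306 in UNKC tumours, against 62 and 98 in normal pancreas, so counting error mattered in the normal libraries alone (95% exact counting intervals 19.5 to 40.7 and 34.6 to 61.8 CPM, for counting error only). Among protein-coding genes ranked by the deposited TPM, a share of all counted fragments that also divides by gene length, Spp1 stood at place 5 and 7 in the H7 libraries and at place 1 in both UNKC libraries, against place 746 and 311 in the normal libraries. Spp1 fragments made up 0.320% and 0.290% of the fragments outside ribosomal RNA in H7 tumours and 0.958% and 0.693% in UNKC tumours.

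Cd44 followed the same order at lower levels. It had 188 and 168 CPM in H7 tumours and 464 and 452 CPM in UNKC tumours, against 21.7 and 21.0 CPM in normal pancreas, and no group overlapped another. The normal values rested on 47 and 44 reads (counting intervals 14.2 to 33.0 and 13.9 to 32.9 CPM). By deposited TPM Cd44 ranked at place 536 and 693 of 13841 protein-coding genes in the H7 libraries and at place 159 and 162 of 14385 in the UNKC libraries, against place 5169 and 5456 of 13841 in the normal libraries. Replicates of Cd44 differed by 1.12 times in H7 tumours, 1.03 times in UNKC tumours and 1.04 times in normal pancreas. For Spp1 the higher replicate exceeded the lower by 1.09 times in H7 tumours, 1.35 times in UNKC tumours and 1.63 times in normal pancreas.

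**Figure D1:**
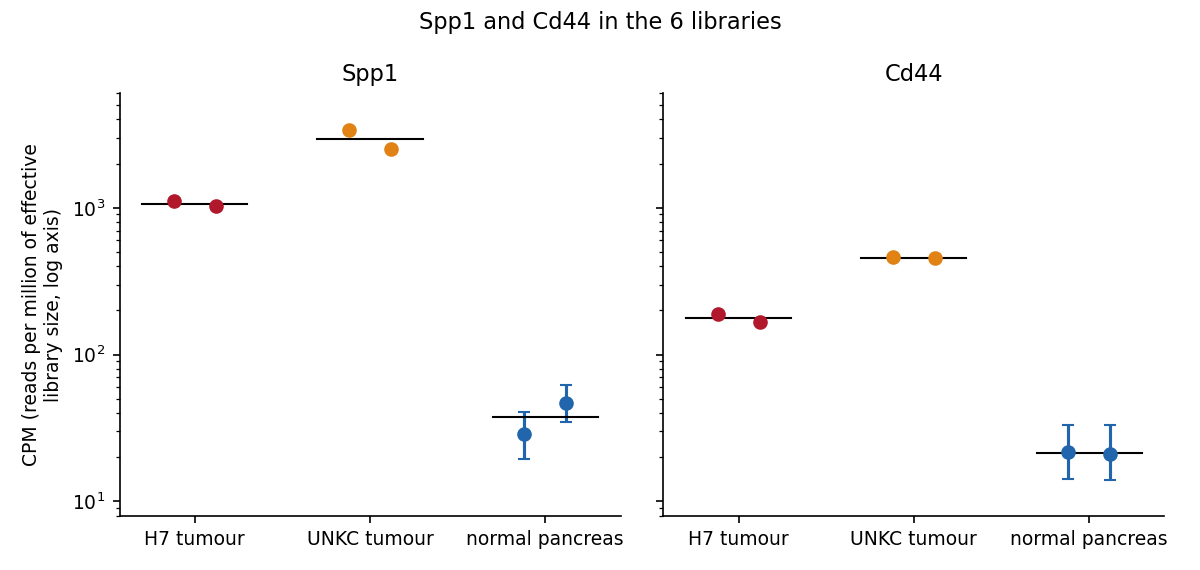
CPM on a log axis for Spp1 (left) and Cd44 (right) in the H7, UNKC and normal libraries. Each point is 1 library, black lines are means of n = 2 and bars are 95% counting intervals, which are smaller than the points in tumours. Both genes lie highest in UNKC tumours, lower in H7 tumours and lowest in normal pancreas.

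Spp1 averaged 1069 ± 64.5 CPM in H7 tumours and 37.7 ± 12.8 CPM in normal pancreas (SD, n = 2 each). That is a log2 fold change of 4.83 ± 0.32 (SE), or 28.3-fold with a 95% interval of 16.5 to 48.7 (edgeR quasi-likelihood test, Benjamini-Hochberg adjusted p = 0.000187). In UNKC tumours it averaged 2961 ± 623 CPM against the same normal pancreas, a log2 fold change of 6.30 ± 0.34 and 78.5-fold, with an interval of 44.1 to 140 (edgeR adjusted p = 0.00015). Cd44 averaged 178 ± 14.4 CPM in H7 tumours and 21.4 ± 0.539 CPM in normal pancreas (SD, n = 2 each), a log2 fold change of 3.06 ± 0.14 and 8.32-fold, with an interval of 6.59 to 10.5 (edgeR adjusted p = 0.000134). In UNKC tumours Cd44 averaged 458 ± 8.39 CPM, a log2 fold change of 4.42 ± 0.14 over normal pancreas and 21.4-fold, with an interval of 16.8 to 27.4 (edgeR adjusted p = 9.84e-05). These fits used reads with both mates of a pair counted, while the normal libraries held 31 and 49 fragments of Spp1 and 24 and 23 of Cd44. The SE, intervals and adjusted p over normal pancreas may therefore be too small. With halved counts Cd44 stood at 2.98 in H7 and 4.34 in UNKC tumours on the log2 scale. Changes were common in this series. Of all tested genes 51.5% were called in H7 tumours against normal pancreas (29.6% higher, 21.9% lower) and 48.5% in UNKC tumours (29.1% higher, 19.3% lower). With upper-quartile scaling in place of TMM the split was 3751 higher and 4391 lower in H7 tumours and 3722 higher and 3977 lower in UNKC tumours. A larger rise than that of Spp1 was measured for 8.76% of tested genes in H7 tumours and 7.18% in UNKC tumours, and a larger rise than that of Cd44 for 13% and 9.78%. The median log2 fold change of all tested genes was 0.34 in H7 tumours and 0.42 in UNKC tumours. Above that median Spp1 lay by 4.49 in H7 tumours and 5.88 in UNKC tumours on the log2 scale, and Cd44 by 2.72 in H7 tumours and 4.01 in UNKC tumours. In bulk tissue, more cells of a type and more RNA per cell cannot be told apart.

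The tumours also differed from each other. Spp1 was 2.77-fold lower in H7 than in UNKC tumours (interval 1.75 to 4.39, log2 fold change -1.47 ± 0.27, edgeR adjusted p = 0.0163). This call was lost without H7 replicate 1 (adjusted p = 0.137), H7 replicate 2 (0.124) or UNKC replicate 1 (0.0779), with log2 values of -1.51, -1.41 and -1.23 in these 3 cases. Cd44 was 2.57-fold lower in H7 than in UNKC tumours (interval 2.09 to 3.17, log2 fold change -1.36 ± 0.12, edgeR adjusted p = 0.00189), and its adjusted p was at most 0.0356 with any 1 library left out. Of all tested genes 18.3% were called between the tumours (7.14% higher and 11.1% lower in H7). A value below that of Spp1 was measured for 13.8% of genes and below that of Cd44 for 14.7%.

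**Figure D2:**
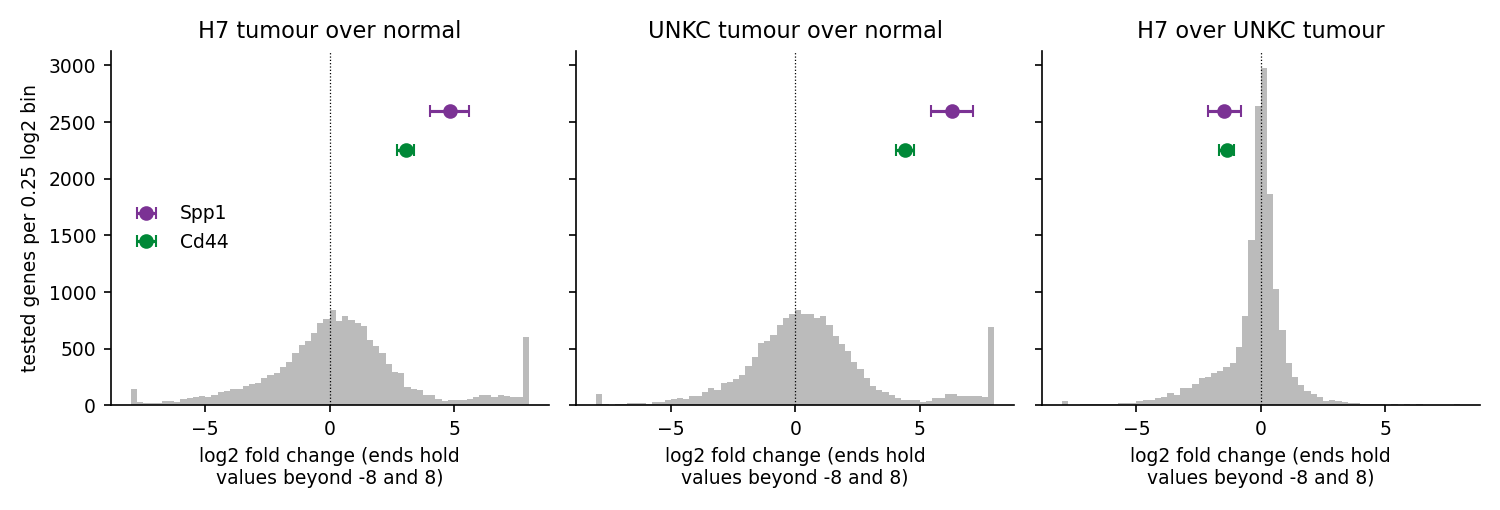
Log2 fold changes of Spp1 and Cd44 (points with 95% intervals) over the histogram of all tested genes in 3 comparisons, with end bins holding the values beyond the axis. Spp1 (4.83, 6.30 and -1.47) and Cd44 (3.06, 4.42 and -1.36) lie on the same side in each comparison, within the range of the histogram.

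The authors' deposited table gave a log2 fold change of 4.66 for Spp1 (adjusted p = 6.9e-87) and 2.82 for Cd44 (6.5e-27) in H7 tumours against normal pancreas. For UNKC tumours the authors' deposited table gave 6.09 for Spp1 (1.06e-71) and 4.17 for Cd44 (2.71e-72). The deposited TPM put Spp1 at 2856 and 2654 in H7 tumours and 9642 and 7269 in UNKC tumours, against 6.65 and 12.1 in normal pancreas. For Cd44 the deposited TPM were 142 and 128 in H7 tumours and 386 and 382 in UNKC tumours, against 1.51 and 1.66 in normal pancreas. TPM are shares of all counted fragments with ribosomal RNA included, which took more of the normal libraries, so their ratio to normal pancreas is larger than the fold changes above. Scaled to total reads with no factors, the log2 fold change of Spp1 was 8.06 in H7 and 9.60 in UNKC tumours and that of Cd44 was 6.35 in H7 and 7.79 in UNKC tumours, while the median of all tested genes was 3.61 in H7 and 3.77 in UNKC tumours.

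The balance of ligand to receptor within a library needs no scaling. There were 5.93 and 6.1 Spp1 reads for each Cd44 read in H7 tumours and 7.34 and 5.58 in UNKC tumours, against 1.32 and 2.23 in normal pancreas. Per gene length (1658 counted bases for Spp1, 5654 for Cd44) the TPM ratio was 20.2 and 20.8 in H7 tumours and 25 and 19.0 in UNKC tumours, against 4.41 and 7.26 in normal pancreas. All 4 tumour libraries thus had a higher ratio than both normal libraries, while the tumour groups overlapped. The log2 read ratio was higher by 1.81 in H7 tumours and by 1.90 in UNKC tumours than in normal pancreas. An exact two-sided permutation test gave p = 0.333 for each, the smallest p that 2 against 2 libraries allow, and p = 1.0 between the tumours (difference -0.09).

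Of the other SIBLING genes, which share bone and tooth matrix functions with Spp1 and lie near it on chromosome 5, only Dmp1 passed the filter on low counts. Dmp1 had 0 and 4 reads in H7 tumours and 16 and 12 in UNKC tumours, against 0 in both normal libraries, and was not called in any comparison. Ibsp, bone sialoprotein, had 0 reads in both H7 libraries and 4 and 384 in the UNKC libraries, against 0 in both normal libraries (named after its values were seen). The 384 reads lay in UNKC replicate 2 alone, the library with the most skeletal muscle marker reads (1790 CPM). Whether the 2 are linked was not tested. Mepe had 2 reads in 1 UNKC library and 0 elsewhere. The nearest tested protein-coding gene on the other side, Pkd2, starts 12929 bases beyond Spp1. It was not called in H7 tumours (log2 fold change -0.04, edgeR adjusted p = 0.896) or UNKC tumours (0.62, 0.0547). Beside Cd44, Slc1a2 ends 20357 bases away and fell in H7 tumours (-3.83 ± 0.77, edgeR adjusted p = 0.00764). In UNKC tumours Slc1a2 was not called (1.17 ± 0.58, 0.148). Pdhx, on the other side of Cd44, was not called in H7 (0.36) or UNKC tumours (0.54).

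Integrins are the other receptors of osteopontin, as pairs of an alpha and a beta subunit. Of 10 subunit genes that bind it, 6 rose and none fell in H7 tumours against normal pancreas, and 6 rose and 2 fell in UNKC tumours (Itga4 and Itga8, leukocyte and mesenchymal alpha subunits). Of all tested genes 29.6% rose and 21.9% fell in H7 tumours, and 29.1% rose and 19.3% fell in UNKC tumours. The median log2 fold change of the 10 subunit genes was 1.62 in H7 and 1.85 in UNKC tumours, beside 0.34 and 0.42 for all tested genes. The 6 were the same genes in both tumours: Itgav, Itga5, Itgb1, Itgb3, Itgb5 and Itgb6. Itgb5, a partner of the alpha v subunit, averaged 129 ± 14.4 CPM in H7 tumours and 90.3 ± 4.99 CPM in UNKC tumours, against 8.93 ± 0.856 CPM in normal pancreas (log2 fold changes 3.86 in H7 and 3.34 in UNKC tumours). Itgav, the alpha v subunit itself, averaged 153 ± 15.1 CPM in H7 tumours and 231 ± 17.3 CPM in UNKC tumours, against 22.8 ± 1.17 CPM in normal pancreas (2.75 and 3.34). On the log2 scale Itgb1 rose by 2.28 in H7 and 2.97 in UNKC tumours, and Itga5 by 1.76 in H7 and 2.37 in UNKC tumours. The edgeR adjusted p of these 4 genes was at most 0.000352.

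On a per-length scale Cd44 was not the highest receptor message. Itgb1, which pairs with many alpha subunits, had 81.8 and 88.8 CPM per kilobase in H7 tumours and 143 and 134 in UNKC tumours, against 15.4 and 19.8 in normal pancreas. Cd44 averaged 31.5 ± 2.54 CPM per kilobase in H7 tumours and 81.0 ± 1.48 in UNKC tumours, against 3.78 ± 0.0952 in normal pancreas (SD, n = 2 each). In UNKC tumours Cd44 came after Itgb1 and above Itgav (34.5 and 31.0) and Itgb5 (28.6 and 26.4). In H7 tumours Itgb5 (36.4 and 42.5) lay above Cd44 (33.3 and 29.7), which lay above Itgav (23.2 and 20.2). The libraries of these neighbours in the order did not overlap within a group. Spp1 itself averaged 644 ± 38.9 CPM per kilobase in H7 tumours and 1786 ± 376 in UNKC tumours, against 22.7 ± 7.7 in normal pancreas.

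Between the tumours 2 of the 10 integrin genes were higher and 4 lower in H7, where 7.14% of all tested genes were higher and 11.1% lower. The 4 were Itgav (log2 fold change -0.59 ± 0.13), Itgb1 (-0.70 ± 0.16), Itga5 (-0.61 ± 0.13) and Itgb7, with edgeR adjusted p = 0.0307, 0.0308 and 0.0254 for the first 3, and the 2 higher ones were Itga4 and Itga8. Without H7 replicate 1, UNKC replicate 1 or UNKC replicate 2 none of the 10 was called between the tumours, and without H7 replicate 2 1 was lower.

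**Figure D3:**
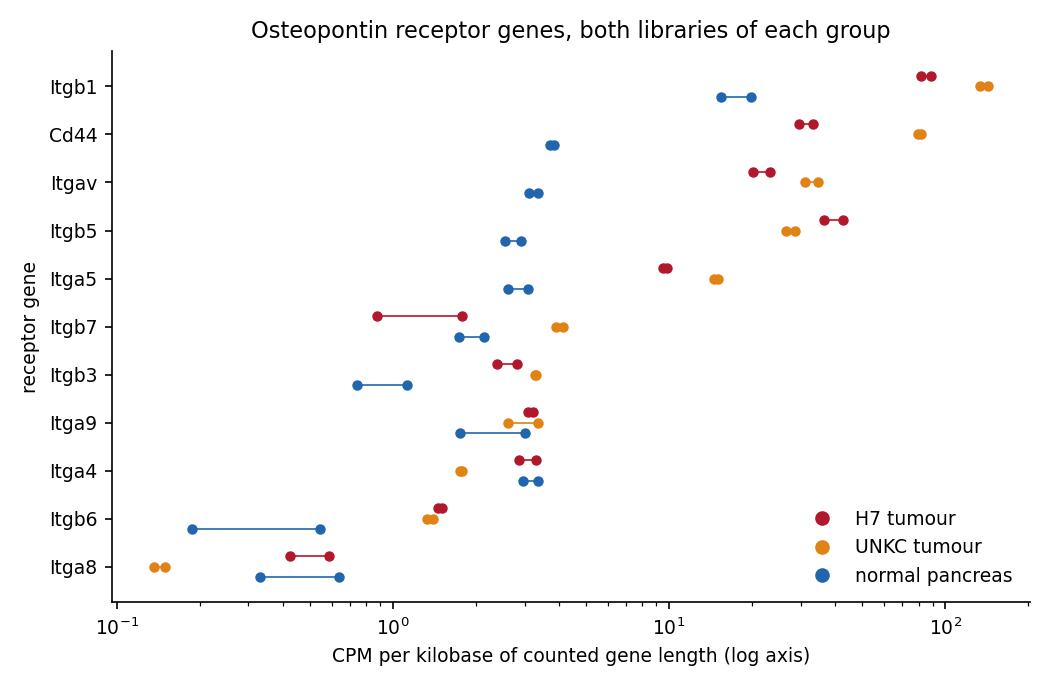
CPM per kilobase on a log axis for Cd44 and the 10 integrin genes, ordered by level in UNKC tumours, with both libraries of each group joined by a line. Cd44 comes next after Itgb1 in UNKC tumours, and after Itgb1 and Itgb5 in H7 tumours.

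Enzymes that cut or modify osteopontin are proteases, a phosphatase, a kinase and a transglutaminase. Of 12, of which F2 and Plg were too low to test, 5 rose in H7 tumours (Mmp12, Ctsb, Ctsd, Acp5 and Tgm2) and 7 in UNKC tumours (Mmp3, Mmp9, Mmp12, Ctsb, Ctsd, Tgm2 and Fam20c), and none fell. The 5 of 10 tested called in H7 tumours, all higher, are near the 51.5% called among all tested genes (29.6% higher, 21.9% lower). In UNKC tumours 48.5% of all tested genes were called (29.1% higher, 19.3% lower), beside 7 of 10 tested here. The median log2 fold change of the 10 tested was 2.46 in H7 and 2.45 in UNKC tumours, or 1.84 and 2.45 with Mmp12 at its bound. Tgm2, a transglutaminase that cross-links osteopontin, averaged 328 ± 29.9 CPM in H7 tumours and 415 ± 35.6 CPM in UNKC tumours, against 33.3 ± 12.3 CPM in normal pancreas (log2 fold changes 3.30 and 3.64). Ctsd, a lysosomal aspartic protease, rose by 2.90 in H7 and 3.17 in UNKC tumours on the log2 scale. Mmp12, macrophage elastase, had no read in normal pancreas; against a floor of 6 reads over the normal group, H7 tumours were at least 2.76-fold higher and UNKC tumours at least 14.0-fold higher (edgeR adjusted p = 0.0128 and 0.00231). Mmp3, stromelysin 1, was 12.1-fold higher in UNKC tumours with a counting interval of 2.16 to 478 (edgeR adjusted p = 0.0275), a call lost without either UNKC library or normal replicate 1 (log2 fold change 2.59). Between the tumours Mmp12 (log2 fold change -2.31 ± 0.39, edgeR adjusted p = 0.0182) and Fam20c, the kinase that phosphorylates osteopontin, were lower in H7, and Phex, a membrane peptidase, was higher. Neither enzyme was called lower without H7 replicate 1, H7 replicate 2 or UNKC replicate 1.

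Of 10 transcription factors and cofactors reported for Spp1, 7 rose and 1 (Lef1) fell in H7 tumours, and 6 rose and none fell in UNKC tumours. Beside this, 29.6% of all tested genes rose and 21.9% fell in H7 tumours, and 29.1% rose and 19.3% fell in UNKC tumours. Over the list the median log2 fold change was 1.96 in H7 and 2.03 in UNKC tumours. Runx2, the bone factor whose core motif lies in the Spp1 window above, averaged 25 ± 3.79 CPM in H7 tumours and 16.3 ± 1.24 CPM in UNKC tumours, against 1.43 ± 2.02 CPM in normal pancreas. With few reads in normal pancreas its ratio was 17.6 in H7 tumours (counting interval 6.01 to 85.4, edgeR adjusted p = 0.00383) and 11.5 in UNKC tumours (3.93 to 55.9, 0.00808). All normal reads of Runx2 lay in normal replicate 2, and without normal replicate 1 its log2 fold change was 3.15 in H7 and 2.53 in UNKC tumours. Ets1, a founding ETS family factor, rose by 2.33 in H7 and 2.06 in UNKC tumours on the log2 scale. Vdr, the vitamin D receptor, averaged 28.0 ± 5.09 CPM in H7 tumours and 6.69 ± 0.55 CPM in UNKC tumours, against 4.46 ± 0.236 CPM in normal pancreas. It rose in H7 tumours (2.65 ± 0.24, edgeR adjusted p = 0.000475), was not called in UNKC tumours (0.58 ± 0.25, 0.105) and was higher in H7 than in UNKC tumours (2.06 ± 0.20, 0.00215). Fos, an AP-1 subunit, went the other way between the tumours, with 7.83 ± 1.04 CPM in H7 and 19.1 ± 1.95 CPM in UNKC tumours, against 3.30 ± 0.735 CPM in normal pancreas. It was lower in H7 than in UNKC tumours (-1.29 ± 0.20, edgeR adjusted p = 0.00942), as was Jun, and neither was called without H7 replicate 1, H7 replicate 2 or UNKC replicate 1. The fall of Lef1 rested on few reads and was lost when any tumour library or normal replicate 1 was left out. Wdr5, a subunit of histone H3 lysine 4 methyltransferase complexes, was not called in H7 tumours (0.88 ± 0.34, edgeR adjusted p = 0.0716), in UNKC tumours (0.83 ± 0.34, 0.0903) or between them (0.05, 0.928). It had 14 and 31 reads in the normal libraries. Its unadjusted 95% intervals over normal pancreas were 0.058 to 1.70 in H7 and 0.0032 to 1.65 in UNKC tumours. Spp1 and Cd44 passed in all 3 comparisons, and a difference between them and Wdr5 was not tested.

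**Figure D4:**
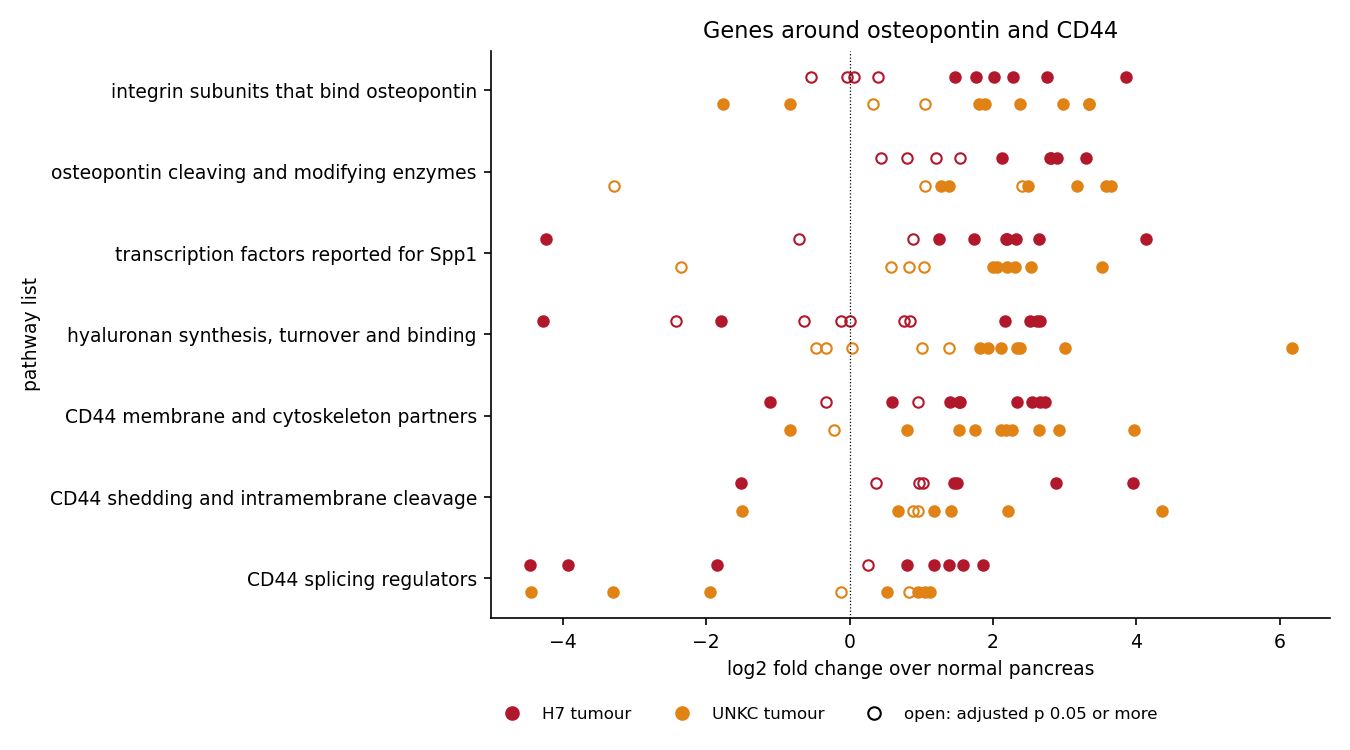
Log2 fold changes over normal pancreas for the tested genes of 7 lists around Spp1 and Cd44, 69 genes in all, with H7 tumours above UNKC tumours in each row. Filled points passed an adjusted p of 0.05 and open points did not, and 3 tested genes without reads in a group, among them Mmp12, are not drawn. Most filled points lie above 0 in the integrin, enzyme, transcription factor and partner rows.

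Among genes around hyaluronan, the main ligand of CD44, the synthase gene Has2 was lower in H7 than in UNKC tumours. Of 13 genes for its synthesis, turnover and binding, 4 rose (Hyal2, Cemip2, Srgn and Hmmr) and 2 fell (Has3 and Lyve1) in H7 tumours, and 7 rose and none fell in UNKC tumours. Of all tested genes 51.5% were called in H7 tumours (29.6% higher, 21.9% lower), a larger share than 6 of 13. In UNKC tumours 48.5% of all tested genes were called (29.1% higher, 19.3% lower). Over the list the median log2 fold change was 0.76 in H7 tumours, or 0.01 with genes without reads at their bound, and 1.93 or 1.82 in UNKC tumours. Has2, a hyaluronan synthase, had 0.521 and 1.06 CPM in H7 tumours and 37.4 and 30.4 CPM in UNKC tumours, against 0 and 0.954 CPM in normal pancreas. Its UNKC libraries stood apart from the other 4, at 72.4 times normal pancreas with a counting interval of 13 to 2860 (edgeR adjusted p = 0.000868, and a log2 fold change of 5.17 in place of 6.17 without normal replicate 1). In H7 tumours Has2 was not called against normal pancreas (0.628), and it was lower than in UNKC tumours (log2 fold change -5.41 ± 0.53, 0.00119, and -6.02 without H7 replicate 2). Hmmr, a hyaluronan-binding protein of dividing cells, rose by 2.66 in H7 and 2.37 in UNKC tumours. Hyal2, a hyaluronidase, rose by 2.61 in H7 and 3.0 in UNKC tumours (edgeR adjusted p = 0.0268 and 0.0166), with all of its normal reads in normal replicate 1. The H7 call was lost without either H7 library and the UNKC call without H7 replicate 1 (0.0553) or UNKC replicate 1 (0.0502), and without normal replicate 2 the values were 1.66 and 2.05. Lyve1, the lymphatic hyaluronan receptor, averaged 0.334 ± 0.145 CPM in H7 tumours and 13.2 ± 10.1 CPM in UNKC tumours, against 6.52 ± 5.17 CPM in normal pancreas. It fell in H7 tumours (-4.27 ± 0.95, edgeR adjusted p = 0.0115), a call lost without H7 replicate 1 (0.0662) or normal replicate 1 (-3.06, 0.142). Without normal replicate 2 its value in H7 tumours was -4.88. Between the tumours 4 genes of the list were lower in H7 (Has2, Has3, Lyve1 and Stab2) and none higher. Of all tested genes 11.1% were lower and 7.14% higher in H7. With either H7 library left out 1 gene of the list was lower.

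Other proteins join CD44 to the membrane skeleton and to other receptors. Of their 11 genes, 8 rose and 1 fell in H7 tumours, and 9 rose and 1 fell in UNKC tumours. Of all tested genes 29.6% rose and 21.9% fell in H7 tumours, and 29.1% rose and 19.3% fell in UNKC tumours. The gene that fell in both was Nf2, which encodes merlin, an inhibitor of CD44 signalling that competes with ezrin. The median log2 fold change was 1.53 in H7 and 2.11 in UNKC tumours. Msn, moesin, averaged 309 ± 5.52 CPM in H7 tumours and 728 ± 9.48 CPM in UNKC tumours, against 46.6 ± 4.99 CPM in normal pancreas (log2 fold changes 2.73 and 3.97). Ezr, ezrin, averaged 106 ± 3.32 CPM in H7 tumours and 278 ± 1.20 CPM in UNKC tumours, against 36.8 ± 8.18 CPM in normal pancreas (1.53 and 2.92). Both were lower in H7 than in UNKC tumours, like Cd44 (Msn -1.24 ± 0.13, edgeR adjusted p = 0.00294, and Ezr -1.39 ± 0.17, 0.00402), as was the scaffold gene Iqgap1, and all 3 calls were lost without H7 replicate 1. None of the 11 was higher in H7, where 11.1% of all tested genes were lower and 7.14% higher. Cd74, the invariant chain that pairs with CD44 as a receptor for the cytokine MIF, rose by 2.66 in H7 and 2.64 in UNKC tumours and did not pass between them (0.02 ± 0.14, 0.958). Egfr, a growth factor receptor, rose by 2.54 in H7 and 2.27 in UNKC tumours.

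Of 8 genes for shedding of CD44 and cleavage of its remaining stub, 4 rose in H7 tumours and 5 in UNKC tumours, Mmp14, Adam17 and Ncstn among them in both, Psen2 fell in both and none was called between the tumours. Of all tested genes 51.5% were called in H7 tumours (29.6% higher, 21.9% lower), beside 5 of 8 here. In UNKC tumours 48.5% of all tested genes were called (29.1% higher, 19.3% lower), beside 6 of 8 here. The median log2 fold change was 1.24 in H7 and 1.07 in UNKC tumours. Mmp14, a membrane metalloprotease that sheds CD44, averaged 134 ± 0.424 CPM in H7 tumours and 178 ± 9.48 CPM in UNKC tumours, against 8.70 ± 1.2 CPM in normal pancreas (log2 fold changes 3.95 ± 0.16 and 4.35 ± 0.16). Adam17, another sheddase, rose by 2.87 in H7 and 2.21 in UNKC tumours, or by 3.73 in H7 and 3.06 in UNKC tumours without normal replicate 1. Psen2, a catalytic subunit of gamma-secretase, fell by 1.51 in H7 tumours and by 1.5 in UNKC tumours on the log2 scale, and Ncstn, a subunit of the same complex, rose by 1.51 in H7 and 1.41 in UNKC tumours. Scaled to total reads with no factors, Psen2 was higher in tumours instead, and none of the genes in these lists was called lower against normal pancreas.

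Which exons CD44 carries is set by splicing factors, and these moved in both directions. Of 9, 5 rose (Rbfox2, Khdrbs1, Tra2b, Srsf1 and Hnrnpa1) and 3 fell in H7 tumours, and 4 rose (the same without Tra2b) and 3 fell in UNKC tumours. Of all tested genes 29.6% rose and 21.9% fell in H7 tumours, and 29.1% rose and 19.3% fell in UNKC tumours. The median log2 fold change was 0.80 in H7 and 0.53 in UNKC tumours. The same 3 genes fell in both. Esrp1 and Esrp2, epithelial factors that keep the variant exons of CD44, stood at 1.54 ± 0.564 and 1.89 ± 0.209 CPM in H7 tumours and 1.55 ± 0.671 and 2.92 ± 0.107 CPM in UNKC tumours, against 33.9 ± 14.2 and 28.9 ± 2.37 CPM in normal pancreas. Their log2 fold changes were -4.46 and -3.93 in H7 tumours and -4.45 and -3.30 in UNKC tumours (edgeR adjusted p at most 0.00106). Srrm1, a splicing coactivator, fell by 1.84 in H7 tumours and by 1.95 in UNKC tumours. With total reads as the scale neither Esrp gene was called, and Srrm1 was higher in tumours. Rbfox2, a factor of mesenchymal splicing, rose by 1.86 in H7 and 1.13 in UNKC tumours and was higher in H7 than in UNKC tumours (0.73 ± 0.15, edgeR adjusted p = 0.0232), a call lost when any tumour library was left out.

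Markers of cell types that can hold osteopontin or CD44 moved with the groups as well. The 11 macrophage markers summed to 1130 and 964 CPM in H7 tumours and 557 and 532 CPM in UNKC tumours, against 112 and 200 CPM in normal pancreas, with C1qb at 0 reads in 1 normal library. In H7 tumours 11 of 11 rose and in UNKC tumours 10 of 11 (all but C1qb), where 29.6% and 29.1% of all tested genes rose. Between the tumours 4 were higher in H7 (Csf1r, C1qa, C1qc and Cx3cr1) and 1 lower (Cd14), beside 7.14% higher and 11.1% lower among all tested genes. The summed macrophage markers ran in the opposite order to Spp1 and Cd44 between the tumours. The 8 companion genes of macrophages high in Spp1 summed to 764 and 556 CPM in H7 tumours and 580 and 592 CPM in UNKC tumours, against 116 and 177 CPM in normal pancreas, with Fabp5 at 0 reads in both normal libraries. Apoe alone held 559 and 362 CPM in H7 tumours and 252 and 252 CPM in UNKC tumours, against 89.3 and 139 CPM in normal pancreas. Their median log2 fold change between the tumours was -0.70, beside -0.02 for all tested genes. Against normal pancreas 5 of the 8 rose in H7 tumours and 7 in UNKC tumours, where 29.6% and 29.1% of all tested genes rose. Of these 8, Arg1 (log2 fold change -4.64) and Fabp5 (-2.12) were lower and Cd63 (0.71) higher in H7 than in UNKC tumours. The 6 duct cell markers summed to 110 and 77.3 CPM in H7 tumours and 349 and 254 CPM in UNKC tumours, against 108 and 69.6 CPM in normal pancreas, and all had reads in every library. Krt19 (-1.93) and Krt7 (-2.74) were lower in H7 than in UNKC tumours. The 6 fibroblast markers summed to 619 and 1070 CPM in H7 tumours and 1200 and 2330 CPM in UNKC tumours, against 204 and 290 CPM in normal pancreas. Most of the UNKC sum lay in 2 collagen genes, Col1a1 (533 and 1146 CPM) and Col1a2 (534 and 1013 CPM). Neither was called between the tumours (edgeR adjusted p = 0.0804 and 0.0812). The only fibroblast markers called between the tumours were higher in H7. Dcn averaged 261 ± 49.6 CPM in H7 and 74.2 ± 12.4 CPM in UNKC tumours (log2 fold change 1.82, edgeR adjusted p = 0.00897), and Pdgfra 133 ± 44.6 CPM in H7 and 32.1 ± 12.4 CPM in UNKC tumours (2.06, 0.0118).

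The other marker lists were smaller in sum or did not follow the order of Spp1 and Cd44. T cell markers summed to 10.4 and 14.7 CPM in H7 tumours and 28.3 and 31.1 CPM in UNKC tumours, against 6.48 and 9.54 CPM in normal pancreas. Neutrophil markers summed to 30.5 and 43.8 CPM in H7 tumours and 7.56 and 6.45 CPM in UNKC tumours, against 7.4 and 22.4 CPM in normal pancreas. Endothelial markers summed to 40.0 and 56.8 CPM in H7 tumours and 76.9 and 119 CPM in UNKC tumours, against 92.6 and 101 CPM in normal pancreas. Islet markers summed to 10.2 and 62.1 CPM in H7 tumours and 41.4 and 13.6 CPM in UNKC tumours, against 602 and 265 CPM in normal pancreas. B cell markers were at most 3.91 CPM in tumours, against 24.1 and 39.6 CPM in normal pancreas, and adipocyte markers at most 2.19 CPM in tumours, against 34.7 and 77.7 CPM in normal pancreas. Skeletal muscle markers reached 483 CPM in H7 replicate 2 and 1790 CPM in UNKC replicate 2 and at most 6.94 CPM elsewhere. Without those libraries Spp1 stood at 4.87 in H7 and 6.48 in UNKC tumours on the log2 fold scale and Cd44 at 3.12 and 4.42, though with 1 library left in each tumour group no gene passed the adjusted threshold (6134 and 5904 genes had an unadjusted edgeR p under 0.05). The part of these cell types in the levels of Spp1 and Cd44 was not tested.

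**Figure D5:**
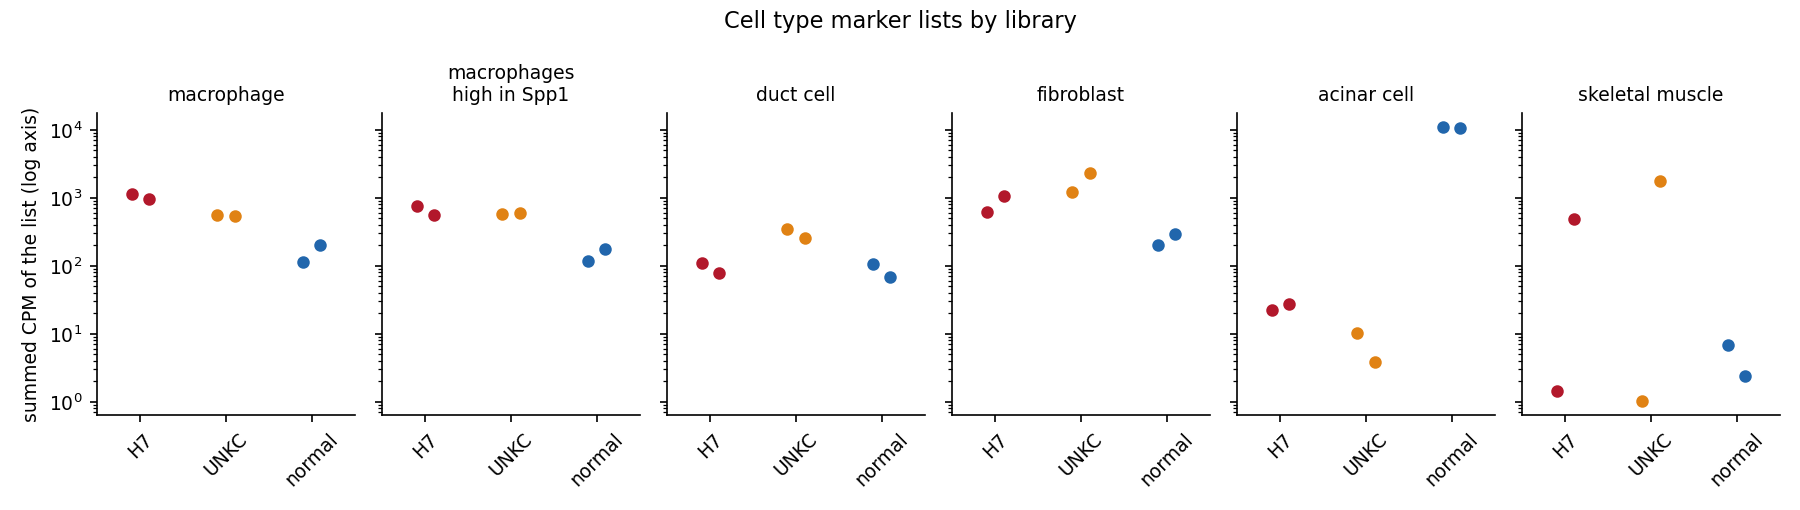
Summed CPM on a log axis of 6 marker lists in each library of the H7, UNKC and normal groups, 1 point per library. Summed duct and fibroblast markers are highest in UNKC tumours, macrophage markers in H7 tumours, acinar markers in normal pancreas, and skeletal muscle markers in H7 replicate 2 and UNKC replicate 2. Col1a1 and Col1a2 hold most of the fibroblast sum in UNKC tumours.

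The genes whose pattern was most like each member were found among 7034 tested genes with a mean of at least 10 CPM, by the root mean square difference of centred log2 CPM over the 6 libraries. For Spp1 they were Cldn2 (0.427), Col12a1 (0.460), Msln (0.491), Cd14 (0.566) and S100a4 (0.572), where the median gene differed by 2.48. For Cd44 they were Col18a1 (0.165), Ctse (0.191), Slc2a1 (0.207), Msn (0.208) and Ecm1 (0.220), where the median gene differed by 1.66. Cd44 stood at place 42 by likeness to Spp1 and Spp1 at place 668 by likeness to Cd44, at a difference of 0.91 in both cases. Cldn2, a claudin of leaky epithelia, averaged 62.6 ± 15.8 CPM in H7 tumours and 311 ± 8.11 CPM in UNKC tumours, against 3.77 ± 1.41 CPM in normal pancreas. Msln, mesothelin, averaged 50.7 ± 7.49 CPM in H7 tumours and 81.2 ± 8.95 CPM in UNKC tumours, against 1.89 ± 1.37 CPM in normal pancreas. Msn was the one gene of the CD44 partner list among these 10.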

How the data were processed

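RNA sequencing of 6 mouse libraries in 3 groups was used. Per the submitters' processing notes, the tools were STAR, featureCounts and DESeq2 1.18.1 with mm10, and their options and the strand of the libraries are not given in the sources used here. The deposited counts of each library are unscaled reads for each of 27179 gene IDs, and hold both mates of a pair (1.98 to 2.00 times the fragment counts of the comparison tables). The authors' 2 comparison tables hold fragment counts, TPM from gene length in bases, log2 fold changes, p-values and adjusted p-values, for genes with at least 10 fragments over 4 libraries. Of the gene IDs 16286 were named by these tables and 9355 by RefSeq, and 1538 had no name.

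From the counts, genes passing filterByExpr (smallest count 10) were scaled by TMM and tested with the edgeR 4.0.16 quasi-likelihood model (limma 3.58.1, R 4.3.3) on all 6 libraries, with Benjamini-Hochberg adjustment over 16306 genes and a threshold of 0.05. Every adjusted p is from edgeR unless another source is named. H7 and UNKC tumours share their normal libraries. The SE is the log2 fold change over the root of its F, from reads with both mates counted, so it may be too small. A floor is 3 read pairs (6 reads) over a group; neither floors nor counting intervals include any other error. Prior count for log2 CPM was 2. Python 3.11.15, pandas 2.3.3, SciPy 1.17.1 and matplotlib 3.10.9 were used, and the fit was checked on simulated data.

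The genes and lists were chosen with earlier results of these data known. From each list up to 4 genes past the threshold against normal pancreas with at least 5 CPM in 1 group and the largest changes were named by rule, with 5 genes by likeness for each member. Genes named to fill counts of 5 or fewer, single markers, Wdr5, Ibsp and genes beside Spp1 and Cd44 were chosen after their values were seen. Alternatives were other scalings, filters, depth, counts, DESeq2 1.42.0, each library left out and a replicate block. A few single genes of the lists are not reported here.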

Additional observations from a re-analysis of the deposited data

Results flagged for a closer look

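Of Spp1, Cd44 and the 28 list genes named by rule, 13 passed a direct edgeR test of H7 against UNKC tumours, so that their changes against the same normal libraries differed. Of all tested genes 18.3% passed this test. The 28 were picked for large changes against normal pancreas in either tumour, from the same libraries, so the 2 sets are not alike. Other list genes and neighbours passed the test too and are given where they are described. Spp1 (log2 fold change -1.47, adjusted p = 0.0163) and Cd44 (-1.36, 0.00189) were lower in H7 tumours. Among the receptors and enzymes Itgav (-0.59), Itgb1 (-0.70), Itga5 (-0.61) and Mmp12 (-2.31) were lower in H7 tumours. Fos (-1.29), Has2 (-5.41), Lyve1 (-5.28), Msn (-1.24) and Ezr (-1.39) were lower in H7 tumours as well. Vdr (2.06) and Rbfox2 (0.73) were higher in H7 tumours. Of these, Cd44, Vdr and Has2 passed the threshold with any 1 library left out. The difference of Lyve1 was -4.15 without UNKC replicate 2 and -5.90 without UNKC replicate 1, and its call was lost without either H7 library.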

How the results depend on the processing

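Against normal pancreas Spp1 and Cd44 kept their direction and their call under every alternative run except the removal of H7 replicate 2 and UNKC replicate 2 together, the libraries with skeletal muscle reads. Then no gene was called in any comparison (0 in each, with 6134, 5904 and 2312 genes at an unadjusted edgeR p under 0.05), and Spp1 stood at 4.87 and 6.48 on the log2 fold scale in H7 and UNKC tumours and at -1.61 between them, and Cd44 at 3.12, 4.42 and -1.30. With 1 library left out in turn (a library alone in its group is taken to vary as much as the rest), Spp1 ran from 4.54 to 5.25 in H7 tumours, from 6.01 to 6.72 in UNKC tumours and from -1.67 to -1.23 between them. Cd44 ran from 3.04 to 3.17, from 4.42 to 4.47 and from -1.42 to -1.28, the log2 read ratio difference from 1.43 to 2.19, from 1.52 to 2.28 and from -0.29 to 0.11, and the genes called from 6198 to 9239, from 5706 to 8847 and from 561 to 4635. Scaled to total reads, Spp1 between the tumours was -1.54 (adjusted p = 0.0886), and 13233 genes (12709 higher, 524 lower) were called in H7 and 13810 (13498 higher, 312 lower) in UNKC tumours. That scale turned the direction of Psen2 (1.82 in H7, 1.90 in UNKC), Srrm1 (1.46, 1.43) and Esrp2 (0.067 in UNKC tumours). The calls between the tumours numbered 1318 with tumours thinned to normal depth, 4816 with the 4 libraries alone and 5210 with DESeq2. The median of all genes in H7 and UNKC tumours was -0.01 and 0.05 with upper-quartile factors, 0.17 and 0.21 with relative log expression factors and -0.28 and -0.27 with DESeq2, and DESeq2 called 4816 higher and 5121 lower in H7 and 4655 and 4598 in UNKC tumours. The 28 genes named by rule kept direction and call in 1000 of their results, lost the call in 116 and turned in 5, and list counts stayed within 1.5 times in 691 and moved in 157, where the cause was not tested.

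No label ties same-numbered libraries together, so replicate numbers were used as names. Deviations of same-numbered libraries correlated across genes at 0.526 for H7 and UNKC, -0.01 for H7 and normal and -0.02 for UNKC and normal. The tumour libraries may thus share a replicate structure, which the main fit left out and whose source was not tested. Skeletal muscle reads lay in replicate 2 of both tumours. The replicate block put 1 shared effect on all 3 groups, although the normal libraries did not follow it. With a replicate block Spp1 stood at 4.82, 6.29 and -1.47 and Cd44 at 3.06, 4.42 and -1.37, and 7972, 7460 and 3211 genes were called. The main limits are 2 libraries in each group and 44 to 98 reads for either gene in a normal library, so differences among normal libraries could not be read at this depth. Whole-gene counts resolve no transcript forms.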

Other observations

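Of the 6 protein-coding genes nearest to Cd44, 3 on each side, 4 were called lower in H7 than in UNKC tumours, as Cd44 was, where 11.1% of all tested genes were. Calls of these neighbours with 1 library left out were not examined. The 4 were Slc1a2 (log2 fold change -5.0, edgeR adjusted p = 0.00231), Pamr1 (-3.13, 0.0134), Fjx1 (-5.18, 0.00216) and Ehf (-3.86, 0.00151), and Pdhx (-0.18) and Apip (-0.64) were not called. Against normal pancreas these genes did not all move with Cd44. Ehf, an epithelial ETS factor 361762 bases from Cd44, fell in H7 tumours (log2 fold change -1.29 ± 0.31, edgeR adjusted p = 0.015) and rose in UNKC tumours (2.57 ± 0.31, 0.00131), with 746 and 457 reads in H7 libraries and 11151 and 10161 in UNKC libraries, against 48 and 39 in normal libraries. Fjx1, 359349 bases from Cd44, was not called in H7 tumours (-1.90) and rose in UNKC tumours (3.28), with 16 and 21 reads in H7 libraries and 857 and 757 in UNKC libraries, against 0 and 4 in normal libraries. Pamr1 fell in H7 tumours (-2.30, adjusted p = 0.0235) and was not called in UNKC tumours (0.82). Apip was called in neither tumour (0.16 and 0.80). On the higher side of Spp1, Thoc2l fell in H7 (-2.96) and UNKC tumours (-3.14), and Zfp33b was called in neither (-0.48 and -0.66).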
